A study of Homo sapiens with 2 samples.

Results

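The levels of 10 surface antigen genes were described in 2 lung cancer cell lines: MSLN, CEACAM1, CEACAM5, CEACAM6, CEACAM7, PSCA, LYPD3, LY6D, LY6E and LY6K. They were taken by symbol, and made up 10 of the 27685 genes and 24 of the 63714 transcripts in the tables. Because they were chosen from their levels and differences in these same libraries, all of their values are descriptions. The data were 1 RNA-seq library of H2087 cells and 1 of H596 cells, both established human lines labelled lung adenocarcinoma, both untreated and grown in RPMI medium with fetal bovine serum. The labels give no time point and no genetic change for either line, and the paper's text does not mention H596. Levels are FPKM, fragments per kilobase of transcript scaled to library size, so they can be compared between genes. Each level is followed by the 95% Wilson interval of the gene's share of all estimated counts. With 1 library per cell line no difference has a replicate check, no test was possible, and every interval covers counting error only.

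Most of these proteins are held in the outer leaflet of the cell membrane by a glycosylphosphatidylinositol (GPI) anchor, a glycolipid that is built in the endoplasmic reticulum and joined to the end of the protein by the GPI transamidase. GPI-anchored proteins have no cytoplasmic part and can be released from the cell by lipases or proteases. Of the genes, 9 encode such proteins, and CEACAM1 encodes a transmembrane protein. Mesothelin, the product of MSLN, is normally made by mesothelial cells that line the pleura, and it binds the mucin MUC16. The CEACAM genes encode immunoglobulin-like adhesion proteins, among them carcinoembryonic antigen, the product of CEACAM5. PSCA, LYPD3, LY6D, LY6E and LY6K encode small disulfide-rich proteins of the LY6/uPAR family. Several of these products are targets of antibodies or of engineered T cells in cancer.

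The whole series set the scale for these values. Estimated counts summed to 46961500 in H2087 and 55387847 in H596, a ratio of 1.18. Differences were taken as log2(FPKM + 1), H596 minus H2087, and a gene was called when its difference reached 2-fold and its mean FPKM was at least 1. Among the 13048 genes with that mean, 18.2% were called higher in H596 and 14.2% higher in H2087, and the median difference was 0.12. A gene below 1 FPKM in 1 line passes this filter only through the other line, which fixes its direction. Markers of the labelled tissue differed between the lines. Of 7 alveolar lineage markers, 4 were at 1 FPKM or more in H2087 and 0 in H596, and their summed FPKM was 263 and 0.817. NKX2-1, the alveolar lineage transcription factor, was at 110 and 0.508 FPKM. Of 7 squamous markers, 2 were at that level in H2087 and 6 in H596, with summed values of 40.8 and 307. SOX2 made up most of the sum in H2087, at 39.12 FPKM, and was at 56.45 in H596. The H596 library therefore carried squamous markers, and every alveolar marker that its label would call for was below 1 FPKM. All 6 epithelial markers were above 1 FPKM in both. Leukocyte and granulocyte markers summed to 0.0618 and 0.0101 FPKM, with PTPRC and CEACAM8 at 0 counts in both lines, and stromal markers to 4.39 and 10.7. The part of these markers in the differences below was not tested.

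A few sequences carry the features that set transcripts and genes of this group apart. The first is the exon of CEACAM1 that gives the long cytoplasmic tail, exon 7 of 9 on the minus strand at chr19:43015728-43015780 (GRCh37), 53 bases long. It is shown because its inclusion differed between the lines.
CEACAM1 long-tail exon: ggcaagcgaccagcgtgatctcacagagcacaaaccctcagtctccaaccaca
The second is a stretch of 24 coding bases, given in capitals, at the start of exon 13 of 17 of MSLN, at chr16:816644-816667 on the plus strand (GRCh37). It is shown with 15 bases on either side as joined in the transcript, and then the same junction without it. The reason is that transcripts with and without it were given about equal parts of the MSLN signal in H596.
MSLN with the stretch: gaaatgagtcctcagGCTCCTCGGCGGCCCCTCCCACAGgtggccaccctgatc
MSLN without the stretch: gaaatgagtcctcaggtggccaccctgatc
The third is the longest run of bases identical in the transcripts of CEACAM5 and CEACAM6, 65 bases of coding exon at chr19:42219617-42219681 in CEACAM5 and chr19:42265925-42265989 in CEACAM6, both on the plus strand (GRCh37). It is shown because a read that fell wholly inside it could not be placed in one gene.
CEACAM5 and CEACAM6 shared run: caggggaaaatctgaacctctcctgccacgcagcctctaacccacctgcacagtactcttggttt
The longest shared run was 71 bases for CEACAM1 with CEACAM6, 68 bases for CEACAM1 with CEACAM5 and 36 bases for CEACAM5 with CEACAM7. Of all 50-base windows, 2.95% in CEACAM6, 1.77% in CEACAM5, 1.63% in CEACAM1 and 0 in CEACAM7 also occurred in another of these CEACAM genes, and at 100 bases the count of shared windows was 0 in each. Other genes of the family were not compared in this way.

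The promoters of the CEACAM genes were also alike. RefSeq promoters (GRCh38.p14) matched 5 of the 10 genes: CEACAM1, CEACAM5, CEACAM6, CEACAM7 and LYPD3. The 250 bases before the start are shown for CEACAM5, at chr19:41708376-41708625 on the plus strand, and for CEACAM6, at chr19:41755280-41755529 on the plus strand, the neighbouring pair whose levels differed in opposite directions. Capitals mark matches to the motifs searched on both strands, which were the TATA box TATAAA, the GC box GGGCGG, the AP-1 motif TGACTCA, the TEAD motif GGAATG and the E-box CACGTG, the last chosen after the promoters were seen.
CEACAM5 promoter: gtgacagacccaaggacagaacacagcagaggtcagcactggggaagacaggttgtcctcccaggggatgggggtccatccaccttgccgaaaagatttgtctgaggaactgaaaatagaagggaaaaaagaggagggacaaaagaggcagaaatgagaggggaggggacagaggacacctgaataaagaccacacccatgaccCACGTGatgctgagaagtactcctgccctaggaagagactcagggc
CEACAM6 promoter: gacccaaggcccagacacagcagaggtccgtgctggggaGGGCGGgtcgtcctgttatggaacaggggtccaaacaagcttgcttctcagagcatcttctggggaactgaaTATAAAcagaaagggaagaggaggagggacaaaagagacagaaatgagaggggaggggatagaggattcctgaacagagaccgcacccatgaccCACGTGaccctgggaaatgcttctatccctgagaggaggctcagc
These sequences were 73.6% identical. CACGTG occurred in both, 46 bases before the start in CEACAM5 and 45 in CEACAM6, and in 6.34% of all 35116 promoters of this length. TATAAA occurred only in CEACAM6 among the 5, 139 bases before the start, and in 10.7% of all promoters. GGGCGG occurred in CEACAM6, CEACAM1 and LYPD3 and in 42.6% of all. GGAATG occurred in CEACAM1 and CEACAM7, at 91 and 98 bases before the start, and in 11.9% of all. TGACTCA, present in 4.2% of promoters, occurred in 0 of the 5. CEACAM7 was the closest to both CEACAM5, at 80.5% identity, and CEACAM6, at 79%, and CEACAM1 was 64.4% to 70% identical to the others. GC content was 53.2% to 55.6% in the CEACAM promoters and 66.4% in LYPD3, beside a median of 58% over all promoters. A match is a run of letters and not a measured binding site.

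Of the 10 genes, 8 had a mean FPKM of at least 1. Of these 8, MSLN, CEACAM6, LY6D and LY6E were at least 2-fold higher in H596 (4 genes, beside 18.2% of all genes), PSCA and LY6K were at least 2-fold higher in H2087 (2 genes, beside 14.2%), and CEACAM1 and CEACAM5 were called in neither direction. The differences chose the genes, so these counts carry no evidence of their own. MSLN was below 1 FPKM in H2087 and passed the filter through H596 alone, so its direction was also fixed by the filter. CEACAM7 and LYPD3 did not reach the mean FPKM of 1. Without regard to size, 7 genes had the higher value in H596 and 3 in H2087. An FPKM of 1 was reached by 7 of the 10 genes in H2087 and by 8 in H596. LY6E alone reached 100 in H2087, as 2.54% of all genes did, and 3 genes, LY6E, CEACAM6 and MSLN, reached it in H596, beside 2.3% of all genes. Added up, the 10 genes came to 316 FPKM in H2087 and 752 FPKM in H596.

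**Figure D1:**
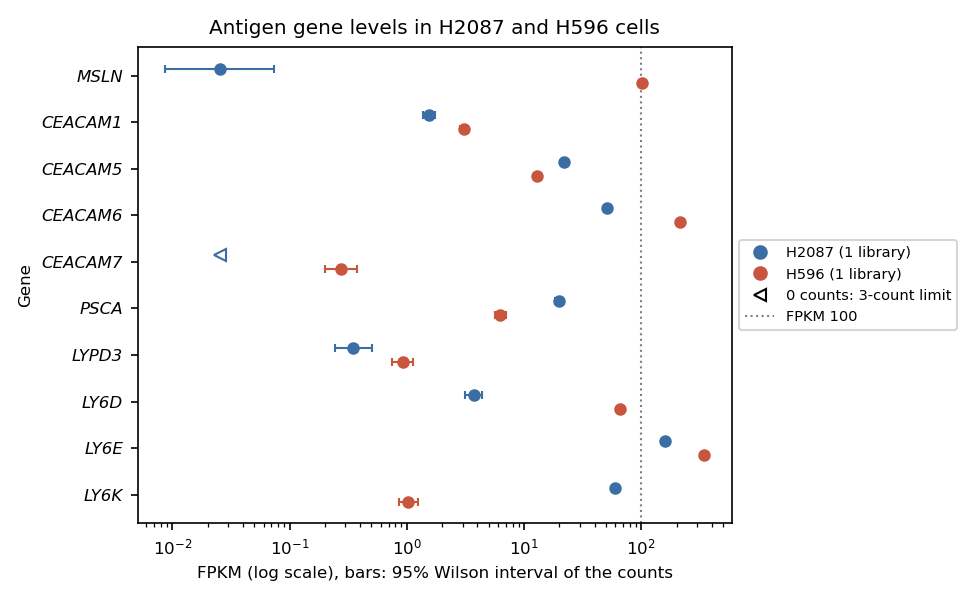
FPKM (log scale) of the 10 antigen genes in the H2087 library (blue) and the H596 library (red), with bars for the 95% Wilson interval of the counts and an open triangle for the limit set by 3 counts where the count was 0. The widest separation is that of MSLN, at 0.0253 and 100.8 FPKM, while LY6K lies at 59.6 in H2087 and 1.03 in H596.

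The order of the genes by level changed between the lines. In H2087 it ran LY6E, LY6K, CEACAM6, CEACAM5, PSCA, LY6D, CEACAM1, LYPD3, MSLN and CEACAM7, and only the last 2 had counting intervals that overlapped. In H596 it ran LY6E, CEACAM6, MSLN, LY6D, CEACAM5, PSCA, CEACAM1, LY6K, LYPD3 and CEACAM7, and LY6K and LYPD3 were the neighbours with overlapping intervals. LY6E held 50% of the summed FPKM of the group in H2087 and 46% in H596. MSLN held 0.008% and 13.4%, CEACAM6 16.3% and 28.5%, and LY6K 18.9% and 0.137%. LY6E thus led in both lines, while MSLN stood near the end of the order in H2087 and LY6K near the end in H596.

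**Figure D2:**
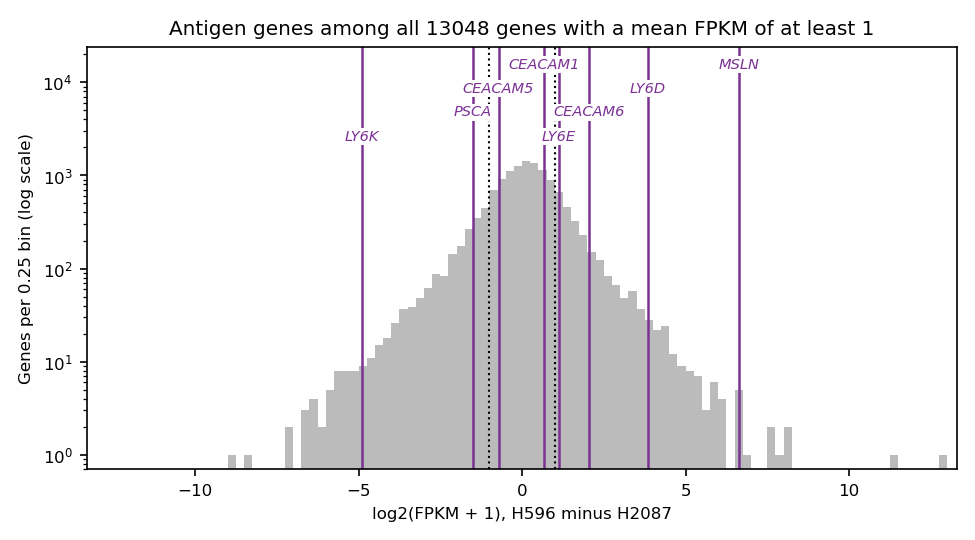
Number of genes (log scale) in bins of log2(FPKM + 1), H596 minus H2087, for the 13048 genes whose mean FPKM was at least 1, with a purple line at each of the 8 antigen genes in that set and dotted lines at the 2-fold call. CEACAM1 and CEACAM5 fall between the dotted lines, and MSLN and LY6K lie far out on the right and left.

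MSLN (gene 10232, chr16:810765-818865, hg19) encodes the precursor that is cleaved into megakaryocyte potentiating factor, which is released, and GPI-anchored mesothelin. It had 3 estimated counts in H2087 and 12287 in H596. Its level was 0.0253 FPKM (0.00861 to 0.0744) in H2087 and 100.8 FPKM (99.1 to 103) in H596. The gene was thus near the limit of detection in H2087 and ranked 633 of all genes in H596, against 17006 in H2087. The difference was 6.63 on the log2(FPKM + 1) scale, and the ratio of counts scaled to the library totals, called the scaled count ratio, was 3473 with an exact 95% interval of 1188 to 16841, a wide interval set by the 3 counts. In bulk RNA, more cells that carry a transcript and more transcript per cell cannot be told apart.

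In H596 the MSLN signal was divided among 3 listed transcripts. NM_013404 was at 46.8 FPKM, NM_005823 at 43.7 and NM_001177355 at 10.3. Only NM_013404 holds the 24-base stretch printed above. It also starts at position 811073, while the others start at 810765, so the estimated division need not rest on the stretch alone. Transcripts with the stretch took 5674 of 12287 estimated counts, or 46.2% (95% Wilson interval 45.3 to 47.1). In H2087 all 3 counts were given to NM_005823, too few to describe its transcripts. The division of reads among transcripts is an estimate by the authors' software, and the interval leaves out its error.

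MUC16, the mucin that binds mesothelin, was at 0.136 FPKM with 287 counts in H2087 and at 11.2 FPKM with 27727 counts in H596, a difference of 3.42 and a scaled count ratio of 81.9 (72.9 to 92.3). The mucin and its partner therefore were both higher in the same line. Other markers of the mesothelium went both ways. Of 6, 3 had a mean FPKM of at least 1. Of the 3, 2 were called higher in H596 and 1 higher in H2087, beside 18.2% and 14.2% of all genes. Calretinin, the product of CALB2, was at 60.02 FPKM in H2087 and 0 in H596. UPK3B was at 0.025 and 18.2 FPKM, and BNC1 at 1.99 and 6.84. UPK3B passed the filter through H596 alone and CALB2 through H2087 alone, so the direction of both was fixed by the filter. WT1, at 0.473 and 0, LRRN4, at 0.860 and 0, and PRG4, with 0 and 2 counts, were low in both. The 6 markers summed to 63.4 FPKM in H2087, nearly all of it CALB2, and to 25.03 in H596.

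The genes nearest to MSLN in the pair of log2(FPKM + 1) values, over these 2 libraries, were ANXA8L1 at a distance of 0.05, SLC1A3 at 0.07 and KRT5 at 0.08. All 3 had 0 counts in H2087. In H596 they were at 98.6, 105 and 106 FPKM. KRT5 is a keratin of basal and squamous cells, and SLC1A3 is a glutamate transporter. Likeness over 2 libraries is a description of the 2 values only. ANXA8L1 has near-identical copies, so its value is uncertain.

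The genes beside MSLN on chromosome 16 did not share its difference. Of the 6 listed genes nearest to it, 5 had a mean FPKM of at least 1. None of the 5 was called higher in H596 and 2 were called higher in H2087, beside 18.2% and 14.2% of all genes. Their median difference was -0.14. CCDC78 was at 4.58 and 0.365 FPKM in H2087 and H596, and HAGHL at 10.7 and 3.003. CCDC78 passed the filter through H2087 alone, so its direction was fixed by the filter. RPUSD1 and CHTF18, on the other side, had differences of -0.14 and -0.12, and NARFL one of 0.84. MIR662 had 0 and 10 counts.

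Among the CEACAM genes, CEACAM6 (gene 4680, chr19:42259428-42276113), whose product is a GPI-anchored adhesion protein of epithelia and granulocytes, had the highest level in both lines. It had 6413 counts in H2087 and 31627 in H596, at 51.4 FPKM (50.2 to 52.7) and 214 FPKM (212 to 217). The difference was 2.04, and the scaled count ratio was 4.18 (4.07 to 4.30). CEACAM6 stood at rank 1478 in H2087 and rank 246 in H596. It has 1 listed transcript.

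CEACAM5 (gene 1048, chr19:42212504-42234341), which encodes carcinoembryonic antigen, had 3257 counts in H2087 and 2518 in H596. Its level was 21.8 FPKM (21.1 to 22.5) and 12.8 FPKM (12.3 to 13.4), a difference of -0.72, short of the 2-fold call. Scaled counts were 1.53 times as high in H2087 (1.45 to 1.61). CEACAM5 and CEACAM6 lie 25086 bases apart on the same strand, and the ratio of CEACAM6 to CEACAM5 in FPKM was 2.36 in H2087 and 16.7 in H596. The neighbours thus differed in opposite directions between the lines.

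The transcripts of CEACAM5 also differed in their shares. NM_004363 was at 13.5 FPKM in H2087 and 11.0 in H596, and NM_001291484 was at 1.10 and 1.11. NM_001308398, which ends earlier and lacks the last non-coding exon of the others, was at 7.20 and 0.763. It took 790 of 3257 counts in H2087, 24.3% (22.8 to 25.8), and 100 of 2518 in H596, 3.97% (3.28 to 4.81). Most of the difference in CEACAM5 was therefore in the short transcript, as the authors' software divided the reads.

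CEACAM1 (gene 634, chr19:43011458-43032661) encodes the transmembrane member, an adhesion receptor whose long tail carries inhibitory tyrosine motifs and whose short tail lacks them. It had 254 counts in H2087 and 589 in H596, at 1.55 FPKM (1.37 to 1.75) and 3.06 FPKM (2.82 to 3.32), with a difference of 0.67, short of the call. The scaled count ratio was 1.97 (1.69 to 2.29). The gene lies within the span annotated for LIPE-AS1, an antisense RNA with 9 counts in H2087 and 28 in H596.

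The long-tail exon of CEACAM1 printed above differed between the lines. Transcripts that hold it took 87 of 254 counts in H2087, 34.3% (28.7 to 40.3), and 3 of 589 in H596, 0.509% (0.173 to 1.49). In FPKM they were at 0.523 and 0.00908, and the transcripts without the exon at 1.03 and 3.05. The long-tail transcript NM_001712 was at 0.368 FPKM in H2087 and 0.00263 in H596, and NM_001184813 at 0.154 and 0. The short-tail transcript NM_001024912 was at 0.690 and 2.11, and NM_001184816 at 0.336 and 0.943. The intervals of the shares do not overlap, although they rest on few counts and on an estimated division. NM_001205344 was at 0 in both and was not assigned.

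CEACAM7 (gene 1087, chr19:42177235-42192206), a GPI-anchored member known from colon epithelium, had 0 counts in H2087, where 3 counts would give 0.0257 FPKM, and 38 counts in H596, at 0.276 FPKM (0.201 to 0.379). Against the 3-count limit it was at least 10.7-fold higher in H596. Its promoter resembles that of CEACAM5, which lies 20297 bases away, but its level was low in both lines.

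**Figure D3:**
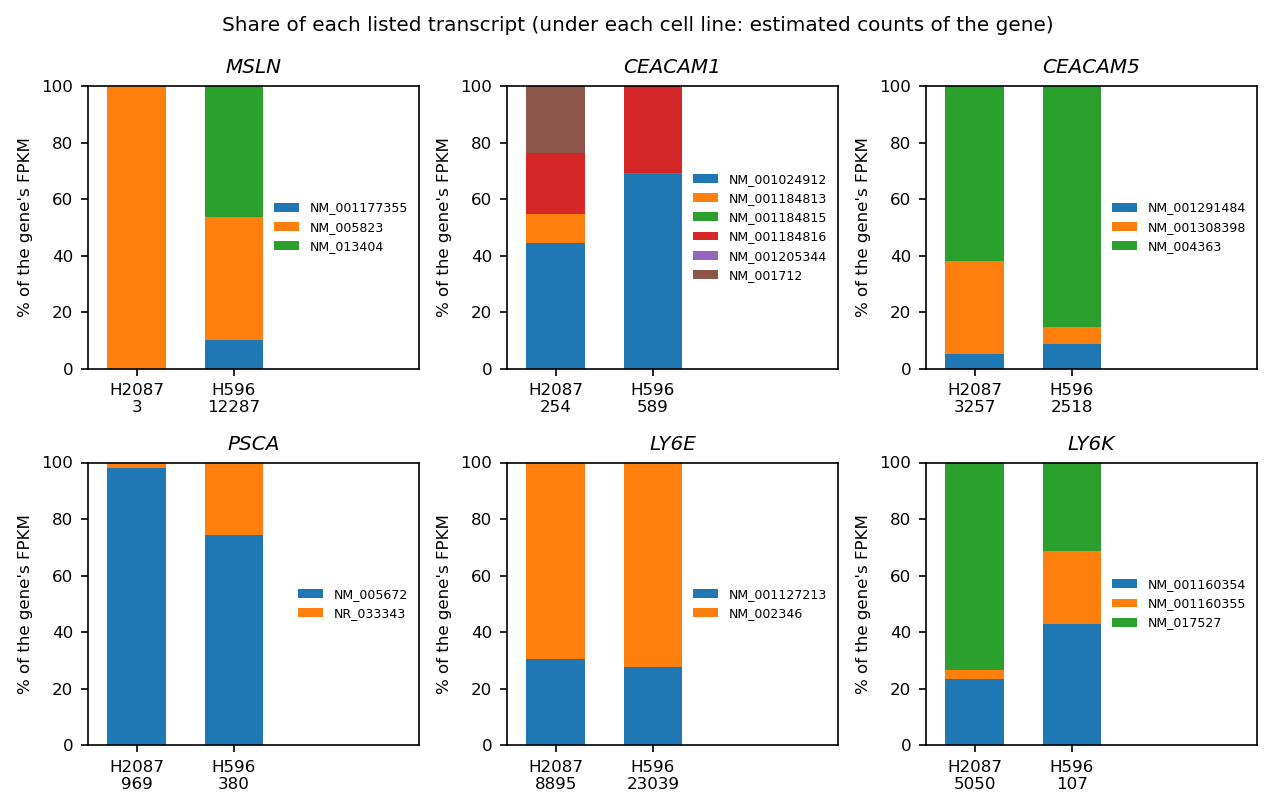
Share of the gene's FPKM (%) held by each listed transcript of the 6 genes with several transcripts above 0, in H2087 and H596, with the estimated counts of the gene under each bar. The NM_001712 and NM_001184813 parts of CEACAM1 are seen in H2087 and not in H596, the NM_001308398 part of CEACAM5 is smaller in H596, and the NR_033343 part of PSCA is larger in H596.

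The LY6/uPAR genes divided by direction. LY6E (gene 4061, chr8:144099902-144103827), which encodes a widely expressed, interferon-inducible surface protein that affects the entry of several viruses, had 8895 counts in H2087 and 23039 in H596. Its level was 158 FPKM (155 to 161) and 346 FPKM (341 to 350), the highest of the group in both lines, at rank 419 and rank 143. The difference was 1.12 and the scaled count ratio 2.20 (2.14 to 2.25). With counts scaled by the TMM method the difference fell just short of 2-fold, so that 3 and not 4 genes were called higher in H596. Its transcripts kept like shares: NM_002346 held 69.4% and 72.2% of the FPKM and NM_001127213 held 30.6% and 27.8%.

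LY6D (gene 8581, chr8:143866298-143868008), a surface protein of stratified squamous epithelium and urothelium, had 143 counts in H2087 and 3020 in H596. Its level was 3.72 FPKM (3.16 to 4.38) and 66.3 FPKM (64.0 to 68.8), a difference of 3.84 and a scaled count ratio of 17.9 (15.1 to 21.3). The ratio of LY6E to LY6D fell from 42.5 in H2087 to 5.21 in H596. Some squamous markers were higher in the same line: KRT5 was at 0 and 106 FPKM, TP63 at 0.183 and 55.2 and DSG3 at 0 and 33.9. SOX2, at 39.12 and 56.45, was short of the call, and CALML3 had 0 counts in both lines.

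LY6K (gene 54742, chr8:143781529-143785584), whose product is known from the testis and from several carcinomas, had 5050 counts in H2087 and 107 in H596. Its level was 59.6 FPKM (58.0 to 61.3) and 1.03 FPKM (0.854 to 1.25), a difference of -4.90, and scaled counts were 55.7 times as high in H2087 (46.0 to 68.1). All 3 listed transcripts were higher in H2087. NM_017527 was at 43.7 and 0.325 FPKM, NM_001160354 at 14 and 0.440, and NM_001160355 at 1.86 and 0.267. The span of LY6K overlaps that of LOC100288181, which had 116 and 78 counts.

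PSCA (gene 8000, chr8:143751726-143764145), named prostate stem cell antigen and also made in stomach and bladder epithelium, had 969 counts in H2087 and 380 in H596. Its level was 19.7 FPKM (18.5 to 21.0) and 6.30 FPKM (5.70 to 6.97), a difference of -1.50, and scaled counts were 3.01 times as high in H2087 (2.67 to 3.40). The transcripts went different ways. NM_005672, the coding transcript, was at 19.4 FPKM in H2087 and 4.68 in H596, while NR_033343, a non-coding transcript that starts upstream at position 143751726, was at 0.355 and 1.62. The upstream transcript took 20 of 969 counts in H2087, 2.06% (1.34 to 3.17), and 108 of 380 in H596, 28.4% (24.1 to 33.2).

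LYPD3 (gene 27076, chr19:43964946-43969831), a urokinase receptor homologue of squamous epithelium, was low in both lines. It had 29 counts in H2087 and 90 in H596, at 0.349 FPKM (0.243 to 0.501) and 0.927 FPKM (0.754 to 1.14). The scaled count ratio was 2.63 (1.72 to 4.15), and the difference was 0.51 on the log2(FPKM + 1) scale, which understates changes of low genes.

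The members on chromosome 8 lie in a stretch of 352 kb from PSCA to LY6E (chr8:143751726-144103827) that holds 14 listed genes. The order along it was PSCA and LY6K, both higher in H2087 and 17383 bases apart, then LY6D and LY6E, both higher in H596. Of the 10 other genes, 3 had a mean FPKM of at least 1, and 2 of these were called higher in H596, beside 18.2% of all genes. LYNX1, another LY6 gene, was at 1.55 and 8.99 FPKM in H2087 and H596. LOC100133669, which ends 94 bases before LY6E, was at 0.0830 and 4.45, with 3 and 178 counts. It passed the filter through H596 alone. THEM6 was at 27.6 and 45.2, short of the call. SLURP1 and LYPD2 had 0 counts in H2087 and 8 and 10 in H596, and GML, CYP11B1 and CYP11B2 had 0 in both.

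The members on chromosome 19 lie within 1793 kb from CEACAM7 to LYPD3, with 47 other listed genes. Of these, 19 had a mean FPKM of at least 1. Of the 19, 10 were called higher in H596 and 1 higher in H2087, beside 18.2% and 14.2% of all genes. A difference above 0 was found for 17 of the 19. The median difference of the 19 was 1.25, beside 0.12 for all genes. PSG5, PSG4, CXCL17, CNFN, LIPE and TMEM145 were below 1 FPKM in H2087 and passed the filter through H596 alone. CD79A was below 1 FPKM in H596 and passed through H2087 alone. The direction of these genes was fixed by the filter, and they are part of these counts and of the median. The genes called higher in H596 included GSK3A, a kinase, at 8.02 and 40.3 FPKM, and CIC, a transcriptional repressor, at 5.22 and 18.5. CXCL17, a mucosal chemokine, was at 0.814 and 28.9. CD79A was the gene called higher in H2087, at 3.72 and 0.0839. CEACAM5 was thus lower in H596 within a stretch where most genes whose mean FPKM was at least 1 were higher there. The number of copies of this stretch in the lines was not measured, and its part in these differences was not tested.

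**Figure D4:**
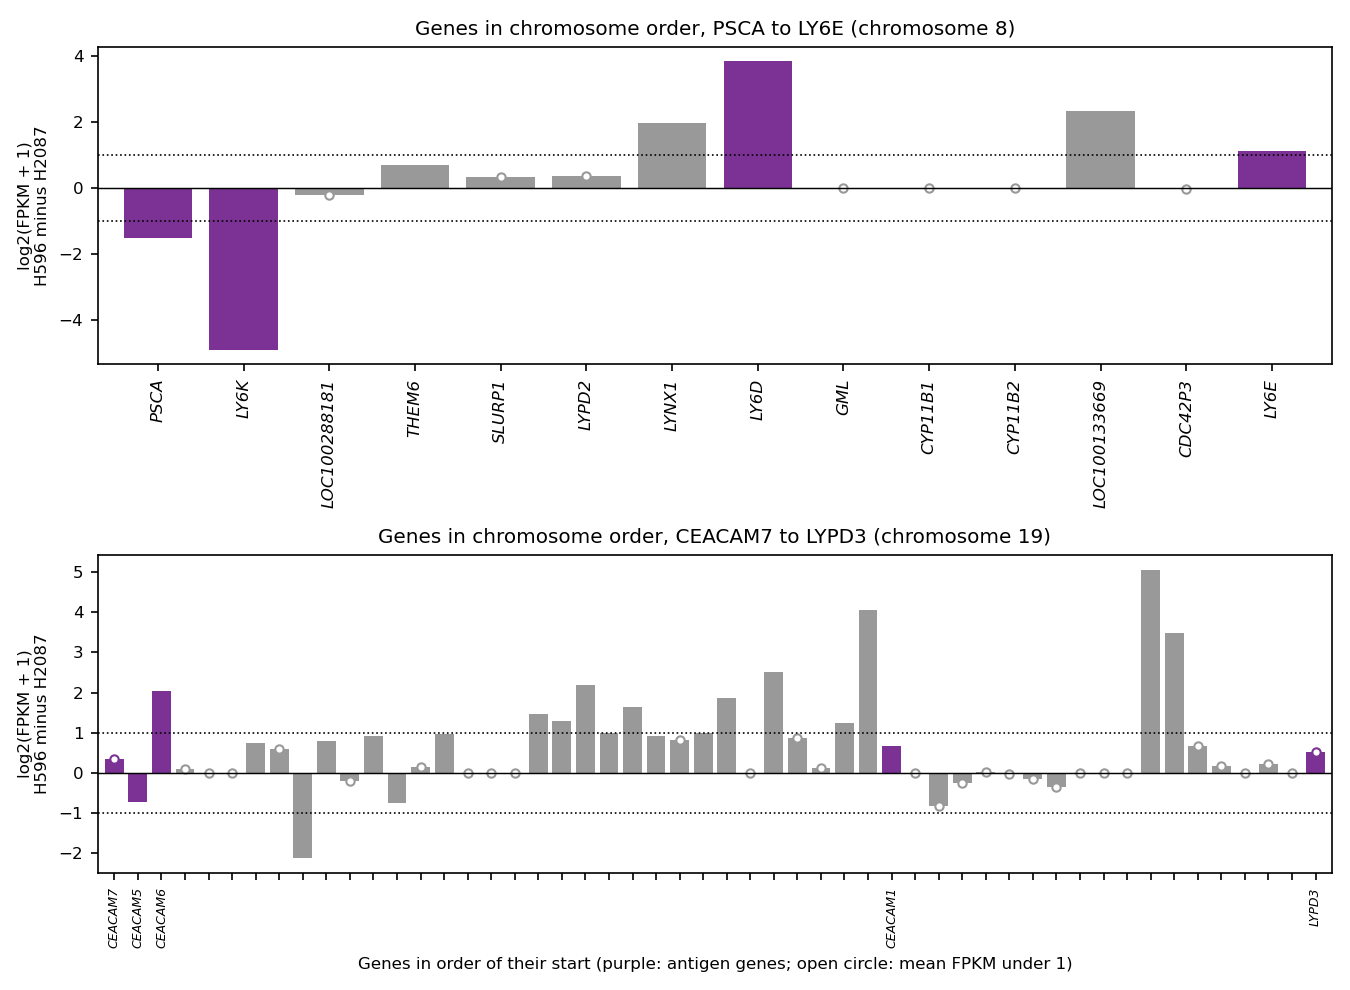
The log2(FPKM + 1) difference, H596 minus H2087, for each listed gene in chromosome order from PSCA to LY6E and from CEACAM7 to LYPD3, with antigen genes in purple (on chromosome 19 only these are named), open circles for a mean FPKM under 1 and dotted lines at the 2-fold call. On chromosome 8 PSCA and LY6K fall below 0 and LY6D and LY6E above it, and on chromosome 19 most grey bars are above 0.

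The other genes of the same families were counted next. Of 19 other genes of the CEACAM family, which includes the pregnancy-specific glycoproteins, 9 had 0 counts in both lines. A mean FPKM of at least 1 was reached by 3, of which 2 were called higher in H596, beside 18.2% of all genes. These 2, PSG5 and PSG4, passed the filter through H596 alone. PSG5 had 0 counts in H2087 and 2962 in H596, at 32.1 FPKM and at least 837-fold higher against the 3-count limit. PSG4 had 0 and 1115 counts, at 10.3 FPKM in H596 and at least 315-fold higher. CEACAM19 was at 2.79 and 3.37. Below the filter, other PSG genes had more counts in H2087: PSG3 had 77 and 4, PSG6 23 and 0, PSG8 18 and 0, and PSG1 13 and 0. PSG9 had 3 and 15. The PSG genes resemble each other, with 21.9% of the 50-base windows of PSG5 and 23.8% of those of PSG4 found in another PSG gene, so how reads were divided between them is uncertain.

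Of 28 other LY6/uPAR genes, 11 had 0 counts in both lines and 9 had a mean FPKM of at least 1. Of the 9, 4 were called higher in H596 and 1 higher in H2087, beside 18.2% and 14.2% of all genes. The median difference was 0.86, beside 0.12 for all genes. LYPD5, LYPD6 and LYPD6B, which are among those called higher in H596, were below 1 FPKM in H2087. They passed the filter through H596 alone, so their direction was fixed by it. LYPD6B was at 0.0531 and 30.1 FPKM with 4 and 2624 counts, a scaled count ratio of 556 (217 to 2043). LYPD6, a related gene on the same chromosome, had a difference of 2.20. PLAUR, the urokinase receptor, was called higher in H2087, at 12.5 and 2.75 FPKM. CD59, which blocks the complement pore, was at 19.4 and 12.7, short of the call.

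Most genes of the machinery that makes the GPI anchor had RNA at 1 FPKM or more in both lines. PIGY, a synthesis gene, was below that, at 0.711 FPKM in H2087 and 0.678 in H596. Of 20 synthesis genes, 19 had a mean FPKM of at least 1. Of the 19, 1 was called higher in H596, beside 18.2% of all genes. It was PIGH, at 7.36 and 16.6 FPKM. A difference above 0 was found for 17 of the 19, with a median of 0.43, beside 0.12 for all genes. DPM1, a subunit of the enzyme that makes dolichol-phosphate mannose, was at 35.9 and 72.1 FPKM with a difference of 0.99. DPM3, its partner, had a difference of 0.82, PIGC 0.77 and PIGZ 0.98. All 5 genes of the GPI transamidase were measured, with a median of 0.80. Of the 5, 1 was called higher in H596, beside 18.2% of all genes. It was PIGS, at 18.5 and 61.5 FPKM. PIGT was at 73.3 and 142, GPAA1 at 77.7 and 129 and PIGU at 20.2 and 36.1, short of the call. PIGK was nearly level, at 8.86 and 8.63, with a difference of -0.03.

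Genes that remodel the anchor and carry the proteins out of the endoplasmic reticulum had a median of 0.30 over 8 genes. Of the 8, 0 were called higher in H596 and 1 higher in H2087, beside 18.2% and 14.2% of all genes. It was TMED5, a cargo receptor, at 25.8 and 11.5 FPKM. TMED2 was at 149 and 118, TMED9 at 77.9 and 70.0 and TMED10 at 57.6 and 96.6. PGAP3 and MPPE1, which remodel the anchor, had differences of 0.98 and 0.92.

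Of 9 genes for cleavage and shedding, 5 had a mean FPKM of at least 1, with a median difference of -0.06. Of the 5, 2 were called higher in H596 and 0 higher in H2087, beside 18.2% and 14.2% of all genes. ADAM10, a surface protease, was at 29.1 and 79.2 FPKM, and BACE1, an aspartic protease, was at 8.29 and 19.1. TMEM8A was at 21.1 and 14.9. GDPD5, a phosphodiesterase that can cut GPI anchors, had a difference of -0.86.

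Among 46 other GPI-anchored surface proteins, 26 had a mean FPKM of at least 1, of which 7 were called higher in H596 and 4 higher in H2087, beside 18.2% and 14.2% of all genes, and the median difference was 0.08. ALPL, CNTN1 and GPC3, which are among those called higher in H596, were below 1 FPKM in H2087 and passed the filter through H596 alone. SEMA7A, called higher in H2087, passed through H2087 alone. The direction of these genes was fixed by the filter. GPC1, a glypican, was at 4.18 and 71.7 FPKM and GPC3, another, at 0.157 and 8.65. CD24, a mucin-like adhesion protein, was at 23.7 and 402, but its listed position is a copy on the Y chromosome, so it is uncertain which locus gave the reads. CD55, which blocks complement, was called higher in H2087, at 137 and 37.5, as was BST2, an interferon-induced protein that tethers viruses, at 159 and 73.7.

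**Figure D5:**
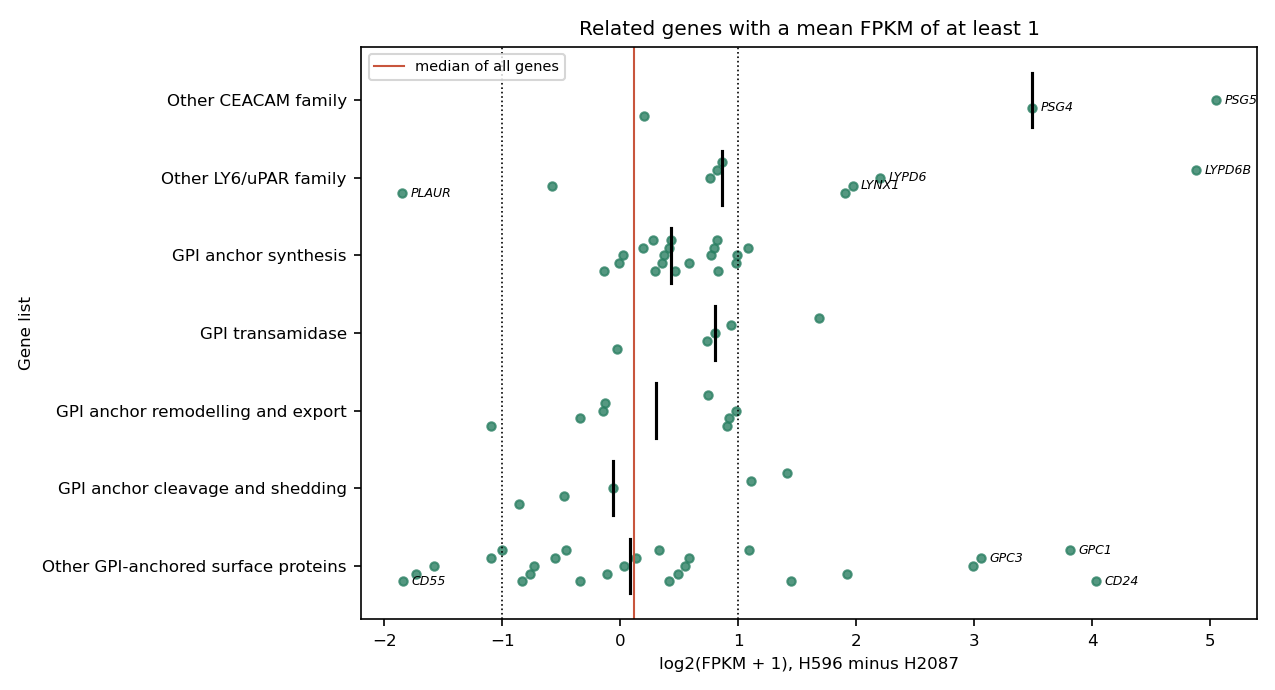
The log2(FPKM + 1) difference, H596 minus H2087, for each gene with a mean FPKM of at least 1 in 7 lists of related genes, with black bars for list medians, a red line for the median of all genes and dotted lines at the 2-fold call. The transamidase list has a median of 0.80 and the other GPI-anchored proteins one of 0.08, beside 0.12 for all genes.

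Of 24 tumor antigen genes whose products are not GPI-anchored, 16 had a mean FPKM of at least 1. Of the 16, 6 were called higher in H596 and 5 higher in H2087, beside 18.2% and 14.2% of all genes. The median difference was 0.54, beside 0.12 for all genes. MUC16 passed the filter through H596 alone, and SLC34A2 through H2087 alone. EGFR was at 37.8 FPKM in H2087 and 265 in H596. EPCAM was at 375 and 65.0, STEAP1 at 35.9 and 2.10, and SLC34A2, a phosphate transporter of alveolar cells, at 11.3 with 2241 counts in H2087 and 0 counts in H596. In H2087 EPCAM was above LY6E, at 158 FPKM, and in H596 EPCAM and EGFR were below LY6E, at 346.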

How the data were processed

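RNA-seq libraries of H2087 and H596 cells, 1 each, were used. Per the labels and the paper's methods, the authors made stranded mRNA libraries from total RNA, trimmed reads with Trimmomatic, aligned them to hg19 (GRCh37) with HISAT2 2.0.5 and estimated abundance with StringTie 1.3.3b, base calls having been converted with bcl2fastq 1.8.4. The deposited tables hold estimated counts and FPKM for genes and transcripts. FPKM, as deposited, was scaled by the authors to the length of the transcript and the size of the library. How the estimated counts deposited by the authors were made, whether strand was used in counting and whether reads were paired are not given in the sources used here, and counted mates would make the intervals too narrow. Overlapping genes and close copies are uncertain.

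The 10 genes, the lists of related genes and the markers were chosen with earlier results of these data known. Genes were called at a 2-fold difference of log2(FPKM + 1), with a pseudocount of 1 and a mean FPKM of at least 1. Intervals are 95% Wilson intervals of the share of the total count, and ratios of counts scaled to the library totals carry exact conditional binomial intervals (scipy 1.17.1), with 3 counts as the limit where the count was 0. Genes named are all 10 antigen genes with their transcripts, the 3 highest and the 3 most different of each list, genes between members, the 3 on either side of MSLN and the 3 nearest to MSLN in level; some genes that this rule takes are not reported here. Single marker genes were named as examples after their values were seen, and so were list genes named beyond this rule. Exon structures were read from GENCODE transcripts on GRCh37. For some transcripts of CEACAM1 and CEACAM5 the model was put together from these by leaving out, adding or exchanging exons. The outer ends of every model were set to the deposited positions. Of the 12 transcripts compared, 11 had a model, and each model had the deposited length. Equal lengths therefore check the total of the exons between fixed ends and not their sequence. Promoters are RefSeq sequences on GRCh38.p14. Protein features were planned, but no protein table was used here. Calls and intervals were tried on simulated counts that held counting error only. Such counts cannot check variation between libraries or the division of reads among genes and transcripts. Alternatives were TMM scaling of the counts (edgeR 4.0.16 in R 4.3.3), a pseudocount of 0.1, other filters, a 4-fold call, centring on the median difference, TPM and the highest transcript of a gene. Python 3.11.15, numpy 2.4.6, pandas 2.3.3 and matplotlib 3.10.9 were used.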

Additional observations from a re-analysis of the deposited data

How the results depend on the processing

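No paired analysis was possible because neither H2087 nor H596 had more than 1 library, and none could be left out. None of the 10 antigen genes changed direction under the alternatives tried. Of all genes, 2376 were called higher in H596 and 1850 higher in H2087; these counts were 1045 and 941 with a mean FPKM of at least 10, and 700 and 622 at a 4-fold call. Genes called higher in H596 were 56.2% of all calls, 50.5% with TMM-scaled counts in place of FPKM, where the median difference of all genes was 0.01 and not 0.12, and 49.1% after centring on the median, so that calls higher in H2087 were then the majority. Among the antigen genes, 3 in place of 4 were called higher in H596 with TMM scaling and at the 4-fold call, and 1 in place of 2 higher in H2087 at the 4-fold call.

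With a pseudocount of 0.1, 3 in place of 1 synthesis genes and 2 in place of 0 remodelling and export genes were called higher in H596. Of the cleavage and shedding genes, 1 in place of 0 was then called higher in H2087, and 1 with TMM scaling. Of the other GPI-anchored proteins, 8 in place of 4 were called higher in H2087, and 7 with TMM scaling, beside 7 called higher in H596 in each case.

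As TPM, a rescaling by 2.14 per FPKM in H2087 and 2.42 in H596, the levels in H2087 and H596 were 3.31 and 7.42 for CEACAM1, 46.5 and 31.1 for CEACAM5, 110 and 520 for CEACAM6, 42.1 and 15.3 for PSCA, 0.746 and 2.25 for LYPD3, 7.94 and 161 for LY6D, 337 and 838 for LY6E, and 127 and 2.50 for LY6K. In H596 TPM was 245 for MSLN and 0.670 for CEACAM7. Taken from the highest transcript, FPKM was 46.8 for MSLN in H596, 0.690 and 2.11 for CEACAM1, 13.5 and 11.0 for CEACAM5, 4.68 for PSCA in H596, 110 and 250 for LY6E, and 43.7 and 0.440 for LY6K. Depth limits the values of MSLN and CEACAM7 in H2087, with 3 and 0 counts.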
